A study of Homo sapiens with 4 samples.

Results

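Antisense transcripts are RNAs read from the strand opposite to a named gene, and the human gene nomenclature marks them with the name of that gene followed by -AS and a digit. The genes described here are the 215 antisense genes whose mean reached 2 CPM (counts scaled to the library total, for this choice only) over 4 RNA-seq libraries of SK-N-SH cells, together with the genes they are named after, called partners. They are 215 of the 844 antisense genes with such a name in the count table, which lists 57820 genes, and within these names they were selected on their measured mean level over all 4 libraries. Of the other antisense genes, 338 were counted below this level and 291 had no count in any library.

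The SK-N-SH line was established from a human neuroblastoma and holds both noradrenergic and substrate-adherent, mesenchymal-type cells. In 2 libraries the cells carried an empty lentivirus vector (vector control), and in 2 they carried a lentivirus in which the EF1a promoter drives the lncRNA RP5-998N21.4 (RP5-998N21.4 OE, here OE). The labels title the controls WT, but their treatment label names the empty vector. Nothing in the labels says that the 2 libraries of a condition came from separate cultures, so every p value below measures the spread between these libraries only, which may be technical.

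Many antisense genes start next to the start of their partner and are read in the other direction from the same promoter region. Others begin far inside or beyond the partner and run across its exons, where the RNAs from the opposite strands can pair. Antisense RNAs are known as regulators of their partner in a number of loci, in either direction, and most are nuclear, less abundant than mRNAs and open to degradation by the nuclear RNA exosome. The comparison of OE with the vector control asks how the antisense genes and their partners differ when RP5-998N21.4 is overexpressed.

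Library totals lay between 23785164 and 28307591 counts. The CPM of single genes in each library are given after TMM normalization throughout. RP5-998N21.4 had 32 and 33 counts in the controls and 2407 and 2808 counts in OE. Of 10 noradrenergic markers 9 had a mean above 1 CPM, and their summed level was 562 to 627 CPM in the vector control and 1010 to 1040 CPM in OE. TH, the rate-limiting enzyme of catecholamine synthesis, had 0 counts in every library, which allows up to 3 counts per library. The 5 mesenchymal markers summed to 1340 to 1460 CPM in the vector control and to 1110 to 2080 CPM in OE, where VIM in OE 1 made the upper end. VIM had 348 and 350 CPM in the vector control and 1250 and 376 CPM in OE, and FN1 overlapped between conditions at a log2 fold change of -0.04. Both OE libraries were below both control libraries for PRRX1, SNAI2 and TWIST1, with log2 fold changes of -0.64, -0.68 and -0.75 and adjusted p of 0.194, 0.078 and 0.383 in edgeR, that of TWIST1 resting mostly on vector control 1 (304 and 143 CPM in the vector control, 132 and 134 CPM in OE). On average, none of 10 markers of other tissues reached 1 CPM, with PECAM1 not matched to a row and EPCAM at 1.28 CPM in vector control 2, and their sums were 1.63 to 2.77 CPM in the vector control and 1.07 to 1.08 CPM in OE. These are bulk libraries, in which fewer cells of a type and less RNA per cell cannot be told apart.

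A partner was matched to 212 of the 215 antisense genes, giving 208 different partners, because MKLN1, DLGAP1, PAXIP1 and ADAMTS9 each lent their name to a pair of antisense genes. HOXD-AS1, HOXD-AS2 and C17orf76-AS1 have no gene of that name in the table. C17orf76-AS1 shares 442 exon bases with FAM211A on the opposite strand, which was not matched as its partner. Positions from the GENCODE annotation lifted to GRCh37 were found for both genes of 211 pairs. In 92 pairs the starts of the most counted transcripts lay within 1 kb of each other on opposite strands, with a median distance of 220 bases. In 43 of these the genes did not overlap and in 49 they did. In 99 pairs the genes overlapped with starts farther apart, in 19 they neither overlapped nor started close together, and HNRNPU-AS1 is annotated on the strand of HNRNPU. The annotation calls 207 of the antisense genes lncRNAs and 4 protein-coding (MMP24-AS1, NCBP2-AS2, RPA3-AS1 and TOPORS-AS1).

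The 5 stretches shown here lie between the start of an antisense gene and the start of its partner in GRCh37 (hg19), and none holds an exon of a counted transcript of either gene. They were chosen because the results below turn on these pairs and the stretch could be printed whole. The starts lie farther apart in other pairs used below, at 264 bases for MAGI2-AS3, 589 for BAIAP2-AS1 and 1204 for GATA3-AS1. Each runs 5′ to 3′ on the strand of the partner, so that it begins beside the antisense start and ends beside the partner start. Capitals mark the CCAAT motif (or ATTGG, its other strand) and the GC box GGGCGG (or CCGCCC). A capital run can hold overlapping motifs.
HAND2-AS1 and HAND2: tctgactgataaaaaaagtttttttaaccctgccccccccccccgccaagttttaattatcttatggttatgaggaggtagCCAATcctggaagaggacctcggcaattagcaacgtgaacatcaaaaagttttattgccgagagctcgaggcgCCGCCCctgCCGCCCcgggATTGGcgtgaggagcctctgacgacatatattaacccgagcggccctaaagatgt
ZBED5-AS1 and ZBED5: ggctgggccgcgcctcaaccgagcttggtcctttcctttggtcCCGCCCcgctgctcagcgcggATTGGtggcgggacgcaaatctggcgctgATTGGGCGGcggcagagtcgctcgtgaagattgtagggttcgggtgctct
JHDM1D-AS1 and JHDM1D: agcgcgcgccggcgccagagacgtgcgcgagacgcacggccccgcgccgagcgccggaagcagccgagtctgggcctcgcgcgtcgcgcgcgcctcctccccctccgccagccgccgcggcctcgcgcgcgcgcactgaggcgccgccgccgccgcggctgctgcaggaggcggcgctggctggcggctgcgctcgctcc
DNAJC3-AS1 and DNAJC3: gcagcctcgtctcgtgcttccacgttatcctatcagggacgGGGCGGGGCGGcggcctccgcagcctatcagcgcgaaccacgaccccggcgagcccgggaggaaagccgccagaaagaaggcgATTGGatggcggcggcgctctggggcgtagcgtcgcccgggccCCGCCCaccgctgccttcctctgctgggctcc
TMCC1-AS1 and TMCC1: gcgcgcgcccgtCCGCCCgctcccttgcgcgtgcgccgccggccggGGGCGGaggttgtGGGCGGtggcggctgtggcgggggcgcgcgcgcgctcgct
The HAND2 stretch (chr4:174451381-174451608, minus strand) has 228 bases, 50.9% GC, 2 CCAAT motifs and 2 GC boxes. The ZBED5 stretch (chr11:10879621-10879763, minus strand) has 143 bases, 65.7% GC and the same motif counts. The JHDM1D stretch (chr7:139876784-139876983, minus strand) has 200 bases and 83.0% GC and holds neither motif. The DNAJC3 stretch (chr13:96329194-96329392, plus strand) has 199 bases, 71.9% GC, 1 CCAAT motif and 3 GC boxes. The TMCC1 stretch (chr3:129612555-129612653, minus strand) has 99 bases, 85.9% GC, no CCAAT motif and 3 GC boxes.

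Promoters of the antisense genes and of their partners held more CG dinucleotides than the median promoter. RefSeq windows from 250 bases before to 50 bases after a start (GRCh38.p14) were found for 137 of the 215 antisense genes, with 176 windows. Their median GC content was 64.7% and their median number of CG dinucleotides 23, against 64.7% and 24 in the partner windows and 58.7% and 14 in all 35116 windows. GGGCGG, on either strand, was in 55.1% of the antisense windows, in 64.9% of 288 partner windows and in 45.0% of all windows. CCAAT was in 29.5%, 32.3% and 34.6% of these windows and TATAAA in 5.68%, 7.99% and 11.5%. A window near a shared start can belong to both genes of a pair, and a match is a run of letters, not a binding site. All windows include those of genes not expressed here, whereas the antisense genes were selected on their level, and this difference was not adjusted for.

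Antisense genes were mostly less abundant than their partners. Per length of the annotated transcripts, the median level was 4.16 CPM per kb for the antisense genes and 11.2 CPM per kb for the partners, over 181 pairs in which at least 90% of the counts had a transcript length. The antisense gene was lower than its partner in 129 of these pairs and higher in 52, and the median ratio of partner to antisense level was 2.74. By the mean CPM of the library totals the median antisense gene was at 6.48, 77 were at 10 CPM or more and 6 at 100 CPM or more. The antisense genes just above the limit were GNG12-AS1, SIX3-AS1 and ZNF252P-AS1 with means of 2.03, 2.09 and 2.11 CPM, and those just below it were RBM12B-AS1, IGFBP7-AS1 and RNF219-AS1 with 1.99, 1.93 and 1.92 CPM.

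The 6 antisense genes with the highest mean CPM were HAND2-AS1, FGD5-AS1, HNRNPU-AS1, TAPT1-AS1, OIP5-AS1 and TP73-AS1. Per length, TAPT1-AS1 was at 88.3 CPM per kb, FGD5-AS1 at 83.3 and HAND2-AS1 at 82.5, and OIP5-AS1, TP73-AS1 and HNRNPU-AS1 followed at 18.2, 16.2 and 15.6. FGD5-AS1 was abundant beside a partner that was nearly silent, since FGD5, a guanine nucleotide exchange factor of endothelial cells, was at 0.0416 CPM per kb. FGD5-AS1 had 318 and 301 CPM in the vector control and 309 and 319 CPM in OE, with overlapping conditions and a log2 fold change of 0.02 ± 0.062 (SE, n = 2 per condition). TAPT1-AS1 had 182 CPM in both vector control libraries and 239 and 188 CPM in OE, where the difference of 0.23 ± 0.139 (log2, SE) rested mostly on OE 1. TP73-AS1, named after a member of the p53 family, had 69.5 and 119 CPM in the vector control and 112 and 110 CPM in OE. HNRNPU-AS1 had 181 and 200 CPM in the vector control and 206 and 212 CPM in OE. Its partner HNRNPU encodes an abundant nuclear RNA-binding protein, and 36.7% of the annotated HNRNPU-AS1 exon bases are shared with HNRNPU on the same strand, so reads there cannot be assigned to 1 of them.

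By edgeR's quasi-likelihood test, 2 antisense genes fell with OE at an adjusted p under 0.05, WAC-AS1 and ZBED5-AS1. WAC-AS1 had 1219 and 1267 counts in the controls and 62 and 49 counts in OE. In CPM it went from 53.1 ± 1.11 (SD, n = 2) to 2.08 ± 0.549 (SD, n = 2), a log2 fold change of -4.67 ± 0.245 (SE) with an adjusted p of 0.0317 in edgeR. WAC, an adaptor protein in histone H2B ubiquitination whose start lies 250 bases from that of WAC-AS1, had 144 and 136 CPM in the vector control and, below both, 129 and 117 CPM in OE, a log2 fold change of -0.19 ± 0.0898 (SE; adjusted p = 0.344, edgeR). The pair shares 251 exon bases, 8.41% of the WAC-AS1 exons, and the kit named in the labels does not mark strand, so reads there cannot be told apart.

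ZBED5-AS1 had 149 and 153 counts in the controls and 13 and 10 counts in OE. It went from 6.46 ± 0.0796 CPM to 0.432 ± 0.122 CPM (SD, n = 2 each), a log2 fold change of -3.90 ± 0.274 (SE) with an adjusted p of 0.0445 in edgeR. The transcript that made up most of its counts, ENST00000501079.1, had 144 and 153 counts in the controls and 0 in both OE libraries. ZBED5-AS1 passed the limit of 2 CPM only through its control libraries, so a difference in this direction is favoured by the choice of members. ZBED5, a gene derived from a transposase, shares no exon bases with it and was level, with 68.1 and 68.6 CPM in the vector control and 64.2 and 71.8 CPM in OE. Both antisense calls were lost with the replicate number as a block, without either vector control library and when only the most counted transcript was tested, and that of ZBED5-AS1 also without either OE library. The adjusted p of WAC-AS1 lay between 1.02e-110 and 0.277 over the alternatives and that of ZBED5-AS1 between 7.01e-23 and 0.296, and the log2 fold change without 1 library stayed between -4.97 and -4.42 and between -4.20 and -3.63.

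Across the 215 antisense genes, all of which were tested, 2 had an adjusted p under 0.05 in edgeR, against 0.594% of the 20528 tested genes, and no partner did. Of these 2, ZBED5-AS1 is among the 215 only through its control libraries. At the thresholds of the study, an adjusted p under 0.01 with an absolute log2 fold change above 0.5, edgeR called 0 antisense genes, 0 partners and 0% of all tested genes. DESeq2 called 26 antisense genes, 17 higher and 9 lower, and 19 partners, 10 higher and 9 lower, against 8.77% of all tested genes. An unadjusted p under 0.05 in edgeR was reached by 46 of 215 antisense genes and 51 of 205 tested partners, against 20.8% of all tested genes. The antisense count was 27 without OE replicate 1, against 14.9% of all tested genes in that fit, and 38 with the replicate number as a block, also against 14.9%.

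More antisense genes were higher than lower in OE. Of the 46 antisense genes 30 were higher (14.0%) and 16 lower (7.44%), against 10.1% and 10.7% of all tested genes. Without OE replicate 1 these counts were 17 and 10. Both OE libraries were above both vector control libraries for 87 antisense genes and below them for 37, against 27.8% and 27.6% of all tested genes, while the partners were at 59 and 59. This balance depends on the scaling, since with CPM of the library totals the counts were 98 and 29 for the antisense genes, 69 and 47 for the partners and 6836 and 4676 for all tested genes. The median log2 fold change was 0.15 for the antisense genes, with 138 positive and 77 negative, and 0.01 for the partners, with 105 positive and 100 negative, while that of all tested genes was 0.01. Other lncRNA genes at 2 CPM or more were also shifted upward, with a median of 0.10, 120 higher and 52 lower of 973 tested, and the 65 LINC genes had a median of 0.15 with 12 higher and 6 lower. Protein-coding genes at this level had a median of -0.02.

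The limit on the mean level admits genes that are high in a single condition. Of the 215 antisense genes, 17 were under 2 CPM in the vector control mean and 3 under 2 CPM in the OE mean. Among the 195 at 2 CPM or more in both, 25 were higher and 14 lower at an unadjusted p under 0.05, beside the 10.1% and 10.7% of all tested genes and 11.2% and 12.8% of all genes at 2 CPM or more, and the median log2 fold change was 0.13.

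**Figure D1:**
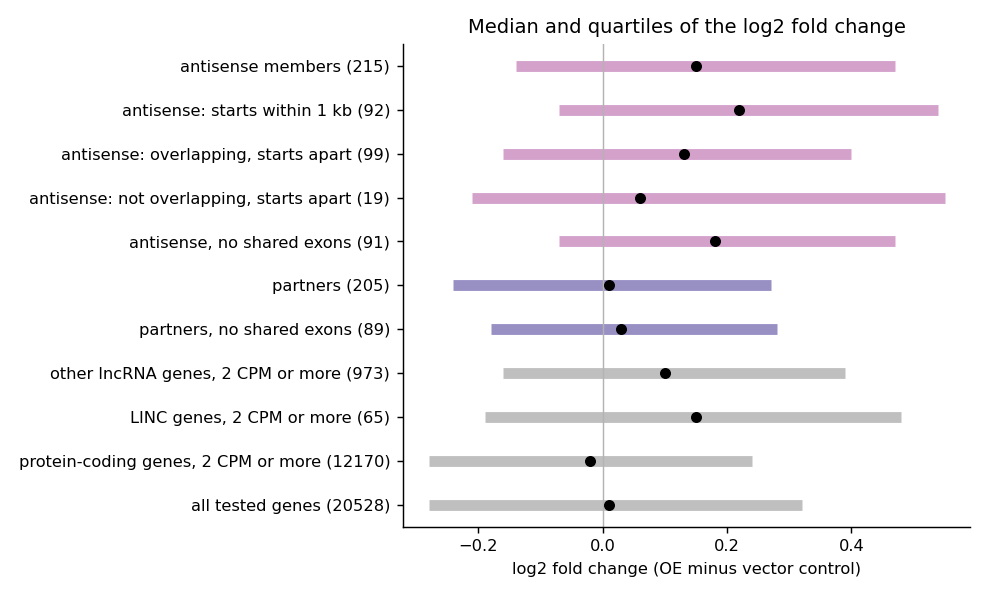
Median (dot) and quartiles (bar) of the log2 fold change, OE minus vector control, for the antisense genes, their partners and other groups of genes, with the number tested in parentheses. The median of the antisense genes lies at 0.15 and that of their partners at 0.01, and the LINC genes lie at 0.15.

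By arrangement, the antisense genes that start within 1 kb of their partner had a median log2 fold change of 0.22, with 16 higher (17.4%) and 6 lower (6.52%) of 92 at an unadjusted p under 0.05, against the 10.1% and 10.7% of all tested genes. Their partners had a median of -0.01, with 10 higher and 12 lower. Antisense genes that overlap their partner with starts apart had a median of 0.13, with 9 higher (9.09%) and 7 lower (7.07%) of 99, and their partners had a median of 0.03. For the 19 pairs that neither overlap nor start together the medians were 0.06 and 0.18. Of these 19 antisense genes 5 were higher (26.3%) and 3 lower (15.8%), the largest shares of the 3 arrangements but from few genes. The difference between the arrangements was not tested. Exon bases were shared with the partner in 120 pairs, at a median of 9.66% of the antisense exons, up to 82.9% for EAF1-AS1. In the 91 pairs without shared exon bases the antisense median was 0.18.

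Among the antisense genes higher in OE with conditions apart, 8 were named for their smallest p values. HAND2-AS1, which starts 229 bases from HAND2, had 273 and 248 CPM in the vector control and 476 and 461 CPM in OE. Every OE library was well above every control library, and the log2 fold change was 0.85 ± 0.0737 (SE; adjusted p = 0.059, edgeR). GATA3-AS1 had 8.07 and 7.11 CPM in the vector control and 14.7 and 13.3 CPM in OE (log2 fold change 0.88 ± 0.148, adjusted p = 0.1, edgeR). SOCS2-AS1 had 5.84 and 5.41 CPM in the vector control and 12.8 and 11.8 CPM in OE. SOCS2, a suppressor of cytokine signalling, was at 1.33 and 15.3 CPM in the vector control and 23.4 and 39.9 CPM in OE, so its control libraries differed more from each other than the lower OE library did from the higher control library.

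The largest positive differences among these 8 were in antisense genes with few counts. PITRM1-AS1, named after a mitochondrial presequence protease, had 18 and 15 counts in the controls and 106 and 140 in OE (log2 fold change 2.68 ± 0.235, adjusted p = 0.0591, edgeR). The difference lay in 1 transcript, ENST00000430356.2, with 0 counts in both control libraries and 87 and 114 in OE, while ENST00000441377.1 had 18, 15, 19 and 18 counts in the same order. MRPL23-AS1, which lies near the gene of a mitochondrial ribosomal protein without overlapping it, had 28 and 21 counts in the controls and 156 and 149 in OE (2.43 ± 0.258, adjusted p = 0.0662, edgeR). ADAMTS9-AS2 had 24 and 23 counts in the controls and 85 and 99 in OE. These 3 genes passed the limit of 2 CPM only through their OE libraries, so a difference in this direction is favoured by the choice of members.

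ZBED3-AS1 had 48 and 52 counts in the controls and 195 and 158 in OE, and ATP6V0E2-AS1 had 11.7 and 11.8 CPM in the vector control and 18.0 and 19.6 CPM in OE. For both, the OE libraries lay above the control libraries without overlap, with log2 fold changes of 1.63 ± 0.254 and 0.68 ± 0.119 (SE) and adjusted p of 0.0934 and 0.106 in edgeR. PITRM1, MRPL23 and ADAMTS9, a secreted metalloprotease, had log2 fold changes of -0.30, -0.06 and -0.18, none with an adjusted p under 0.05 in edgeR. PITRM1 shares 695 exon bases with PITRM1-AS1, 15.5% of the antisense exons, where reads cannot be told apart.

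Beside WAC-AS1 and ZBED5-AS1, 6 antisense genes were named for the smallest p values among those lower in OE. EPHA1-AS1, named after an ephrin receptor, had 11 and 7.66 CPM in the vector control and 2.95 and 2.73 CPM in OE (log2 fold change -1.71 ± 0.247, adjusted p = 0.0869, edgeR). It shares 75 exon bases with OR10AC1P, an olfactory receptor pseudogene on the opposite strand, which had 420 and 425 counts in the controls and 191 and 231 in OE, and the part of these reads in the result was not tested. MBNL1-AS1 had 17.1 and 11 CPM in the vector control and 4.98 and 5.64 CPM in OE (log2 fold change -1.4 ± 0.278, adjusted p = 0.12, edgeR). MBNL1, a splicing regulator, had no such order, with 489 and 89.5 CPM in the vector control and 94.2 and 404 CPM in OE. It shares 1033 exon bases with MBNL1-AS1, 15.6% of the antisense exons, and the part of these reads in the result was not tested.

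The remaining 4 differed less and with little spread between replicates. SNAI3-AS1 had 7.6 and 8 CPM in the vector control and 4.42 and 4.36 in OE. Its most counted transcript, ENST00000568633.1, had 98 and 86 counts in the controls and 87 and 89 in OE. Most of the fall lay in ENST00000596908.1 (31 and 59 against 5 and 5) and ENST00000565633.1 (46 and 43 against 19 and 32). TMPO-AS1 had 7.82 and 8.26 CPM in the vector control and 4.58 and 4.81 in OE. LPP-AS2, which lies just before the annotated start of the focal adhesion gene LPP and 58572 bases from the start of its most counted transcript, had 19.7 and 17.1 CPM in the vector control and 11.5 and 11.2 in OE. BAIAP2-AS1 had 46.1 and 49.3 CPM in the vector control and 33.8 and 33.5 in OE. Their log2 fold changes were -0.83, -0.77, -0.69 and -0.50, with adjusted p of 0.104, 0.113, 0.118 and 0.111 in edgeR. TMPO-AS1 shares 635 exon bases, 18.9% of its exons, with TMPO on the opposite strand, and the part of these reads in its result was not tested.

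**Figure D2:**
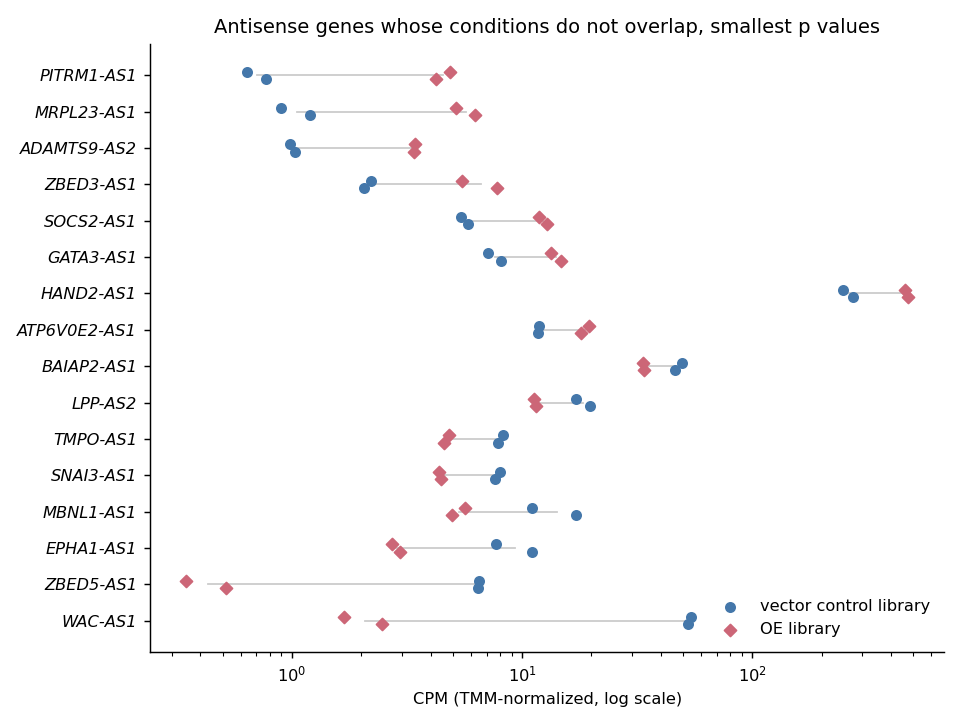
Level in each library (CPM, TMM-normalized, log axis) of the 8 antisense genes higher and the 8 lower in OE with the smallest p values among those whose conditions do not overlap, with circles for vector control libraries, diamonds for OE libraries and a line between the means. WAC-AS1 and ZBED5-AS1 show the widest gaps downward, and PITRM1-AS1 and MRPL23-AS1 the widest upward.

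Same and opposite directions were both frequent among the pairs. Of 208 pairs with both genes tested, 114 had log2 fold changes of the same sign (54.8%), 72 with both higher and 42 with both lower in OE, and 94 had opposite signs. Of the antisense genes 64.2% and of the partners 51.2% had a positive value. Across pairs, which are not independent replicates and share the same 4 libraries, Pearson's r was 0.10 and Spearman's correlation 0.15. An unadjusted p under 0.05 was reached by the antisense gene alone in 35 pairs, by the partner alone in 41 and by both in 11. The 20.8% of all tested genes that reached it is a share of single genes and gives no measure for pairs. Singly, 46 of 215 antisense genes and 51 of 205 tested partners reached it, so some pairs with both can arise without a link between the genes. Whether 11 is more than that was not tested. Of these 11 pairs 6 had the same sign and 5 opposite signs.

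**Figure D3:**
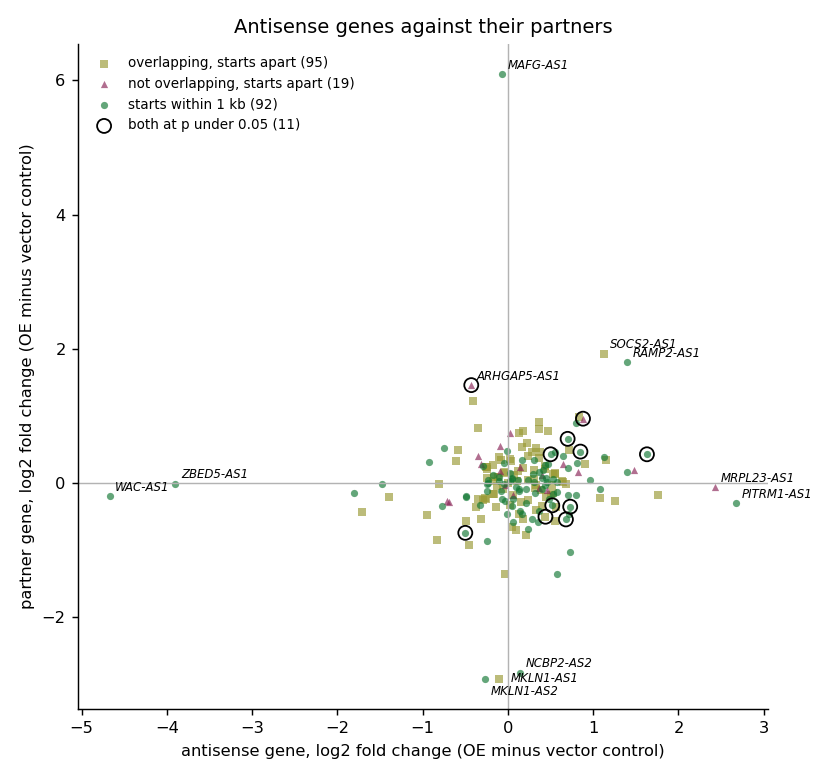
Log2 fold change (OE minus vector control) of each antisense gene on the x axis and of its partner on the y axis, with symbols for the arrangement of the genes and rings around the 11 pairs with both at an unadjusted p under 0.05. WAC-AS1 at -4.67 and ZBED5-AS1 at -3.90 lie near 0 on the axis of the partner, and the pairs annotated on the same strand or without positions are left out.

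The 6 pairs of the same sign included both transcription factor pairs of noradrenergic neuroblastoma among the expressed antisense genes. HAND2, which specifies sympathetic neurons, had 222 and 239 CPM in the vector control and 333 and 302 CPM in OE, a log2 fold change of 0.47 ± 0.0845 (SE; adjusted p = 0.11, edgeR) beside 0.85 for HAND2-AS1. GATA3, which acts in the same lineage, had 51.4 and 39.4 CPM in the vector control and 88.7 and 88.6 CPM in OE, a log2 fold change of 0.96 ± 0.163 (SE; adjusted p = 0.101, edgeR) beside 0.88 for GATA3-AS1. In both pairs both OE libraries lay above both control libraries for each gene, as for 27.8% of all tested genes. Genes with small p values tend to show this order, so it adds nothing to the p values. The GATA3 pair shares no exon bases and its starts lie 1204 bases apart, and the HAND2 pair shares 211 bases, 2.35% of the HAND2-AS1 exons. HAND2 and GATA3 are among the 10 noradrenergic markers, whose sum was higher in OE as given above, and the part of this in the pairs was not tested.

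JHDM1D, which encodes a histone demethylase, and JHDM1D-AS1 share no exon bases and start 201 bases apart. JHDM1D-AS1 had 4.64 and 4.47 CPM in the vector control and 7.85 and 6.91 CPM in OE, and JHDM1D had 35.1 and 34.3 CPM in the vector control and 52.7 and 56.9 CPM in OE. The log2 fold changes were close, at 0.70 ± 0.158 and 0.66 ± 0.0947 (SE; adjusted p = 0.142 and 0.0865, edgeR). MAGI2-AS3 and MAGI2, a synaptic scaffold, had 0.50 ± 0.118 and 0.43 ± 0.103 (adjusted p = 0.149 and 0.15, edgeR). ZBED3-AS1 and ZBED3 had 1.63 and 0.43, with adjusted p of 0.0934 and 0.221 in edgeR. BAIAP2-AS1 and BAIAP2, an actin-binding adaptor, were both lower in OE, at -0.50 and -0.74, with adjusted p of 0.111 and 0.169 in edgeR. BAIAP2 changed transcripts, with ENST00000576995.1 at 119 and 118 counts in the controls and 0 and 7 in OE, and ENST00000321300.6 at 5 and 0 in the controls and 90 and 209 in OE. Its most counted transcript alone gave a log2 fold change of 5.59, opposite in sign to that of the gene.

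In the 5 pairs of opposite sign, the antisense gene was the higher one in OE in 4. ATP6V0E2, a subunit of the vacuolar proton pump, had 135 and 153 CPM in the vector control and 103 and 95.1 CPM in OE, a log2 fold change of -0.54 ± 0.103 (SE; adjusted p = 0.117, edgeR) against 0.68 for ATP6V0E2-AS1. VPS9D1-AS1 had 32.7 and 34.0 CPM in the vector control and 43.1 and 47.3 CPM in OE, and VPS9D1 had 36.3 and 36.4 CPM in the vector control and 27.5 and 24 CPM in OE. Thus the order of the conditions was reversed between the genes of this pair, with log2 fold changes of 0.44 ± 0.101 and -0.50 ± 0.115 (SE; adjusted p = 0.145 for each, edgeR). DNAJC3-AS1 had 0.73 ± 0.192 and DNAJC3, a chaperone partner of the endoplasmic reticulum, -0.35 ± 0.0802, with adjusted p of 0.171 and 0.146 in edgeR. TMCC1-AS1 had 0.52 ± 0.111 and TMCC1, a membrane protein of the endoplasmic reticulum, -0.33 ± 0.107, with adjusted p of 0.129 and 0.215 in edgeR. The DNAJC3 and TMCC1 pairs share no exon bases, while the ATP6V0E2 and VPS9D1 pairs share 20.4% and 23.7% of the antisense exons.

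ARHGAP5-AS1 was the antisense gene of these 5 that was lower in OE. It had 21.0 and 21.3 CPM in the vector control and 15.5 and 15.8 CPM in OE (log2 fold change -0.43 ± 0.105, adjusted p = 0.151, edgeR). ARHGAP5, which encodes a GTPase-activating protein, had 73.6 and 109 CPM in the vector control and 249 and 255 CPM in OE (1.46 ± 0.221, adjusted p = 0.0921, edgeR). Most of that difference lay in 1 transcript, ENST00000345122.3, which had 0 and 2 counts in the controls and 3905 and 4282 in OE. ENST00000216743.6, the other main transcript of ARHGAP5, had 1455 and 2567 counts in the controls and 2349 and 3080 in OE.

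**Figure D4:**
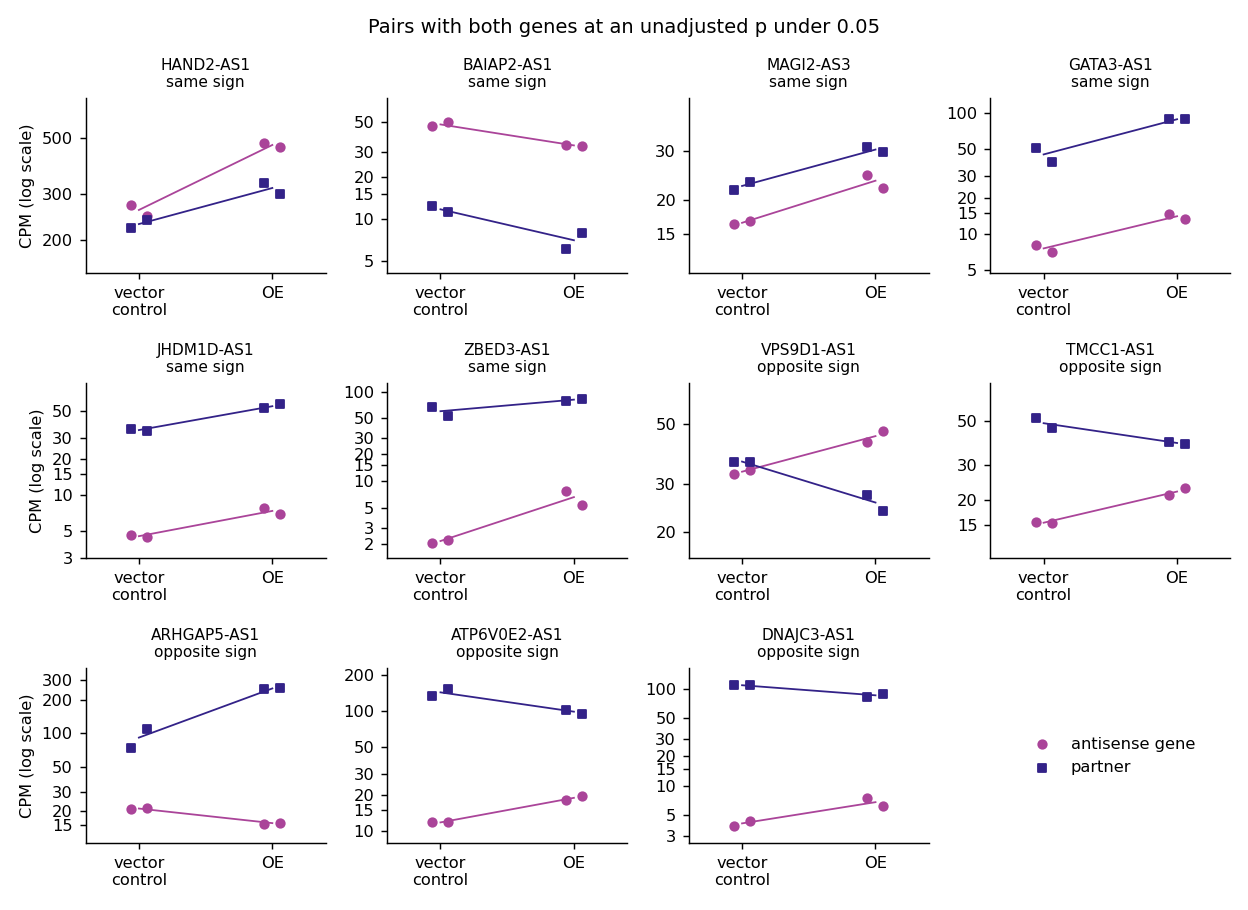
Level in each library (CPM, log axis) of the 11 pairs in which the antisense gene (circles) and its partner (squares) both had an unadjusted p under 0.05, with lines between the means of the conditions. In the 6 pairs of the same sign the lines run in the same direction and in the 5 of opposite sign they cross directions, and the levels of the 2 genes of a pair are not per length.

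The following pairs were chosen after their values were seen, for small p values or wide differences of the partner, and the difference between partner and antisense gene was not tested. SLC7A11, the cystine transporter, had 175 and 162 CPM in the vector control and 310 and 323 CPM in OE (log2 fold change 0.91 ± 0.0733, adjusted p = 0.0521, edgeR), while SLC7A11-AS1 had 3.87 and 1.23 CPM in the vector control and 4.14 and 2.42 CPM in OE. EGFR, the epidermal growth factor receptor, had 598 and 575 CPM in the vector control and 401 and 407 CPM in OE (-0.54 ± 0.0504, adjusted p = 0.0618, edgeR), while EGFR-AS1 overlapped between conditions, with 3.22 and 3.45 against 3.43 and 1.94 CPM. DBH, which makes noradrenaline from dopamine, had 22.7 and 23.5 CPM in the vector control and 41.5 and 40.2 CPM in OE (0.82 ± 0.0934, adjusted p = 0.0707, edgeR). DBH-AS1 pointed the other way, with 13.2 CPM in both control libraries and 11.4 and 9.37 CPM in OE, at a log2 fold change of -0.35 ± 0.155 (adjusted p = 0.31, edgeR). The widest partner difference rested on 1 library, since MAFG, a small Maf transcription factor, had 106 and 76 counts in the controls and 145 and 15147 in OE, while MAFG-AS1 was level at 32.1, 35.1, 34.7 and 29.5 CPM in the same order.

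Of the antisense genes, 9 differed more than 4-fold between the 2 libraries of a condition, 4.19% against 6.19% of all genes at 2 CPM or more. In 8 of them the most counted transcript was not the same in every library. Of the 9, 8 are described below. OIP5-AS1, the lncRNA also known as Cyrano, had 3819 and 86 counts in the controls and 4744 and 6136 in OE. The gap lay in ENST00000500949.2, with 3709 and 0 counts in the controls and 4663 and 6024 in OE. THAP9-AS1 had 1602 and 1528 counts in the controls and 262 and 2447 in OE, and its transcript ENST00000504792.2 had 1519, 1488, 1 and 2295 in the same order. In both genes a single library stood apart from the other 3.

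ITGB2-AS1, named after an integrin chain of leukocytes, had 22 and 238 counts in the controls and 222 and 18 in OE, and each library drew on 1 of 2 transcripts. ENST00000441379.1 held the 238 and 222 counts and ENST00000609592.1 the 22 and 18 counts. DLGAP1-AS1, named after a postsynaptic scaffold, had 409 counts in vector control 1, all in ENST00000317114.1, and 58, 64 and 75 counts in the other libraries, all in ENST00000575606.1. Without vector control replicate 1 its log2 fold change went from -1.96 to 0.06. MKLN1-AS1 alternated by replicate number, with 9.75 and 40.1 CPM in the vector control and 10.6 and 36.0 CPM in OE. TPT1-AS1, AP4B1-AS1 and PTPRG-AS1 also differed this much between replicates, with log2 fold changes of 0.82, -0.81 and 0.63 and adjusted p of 0.737, 0.604 and 0.701 in edgeR. Over all 215 antisense genes, 83 had counts in a single transcript and 41 had more than 1 leading transcript across the libraries. Why transcripts took turns was not tested.

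**Figure D5:**
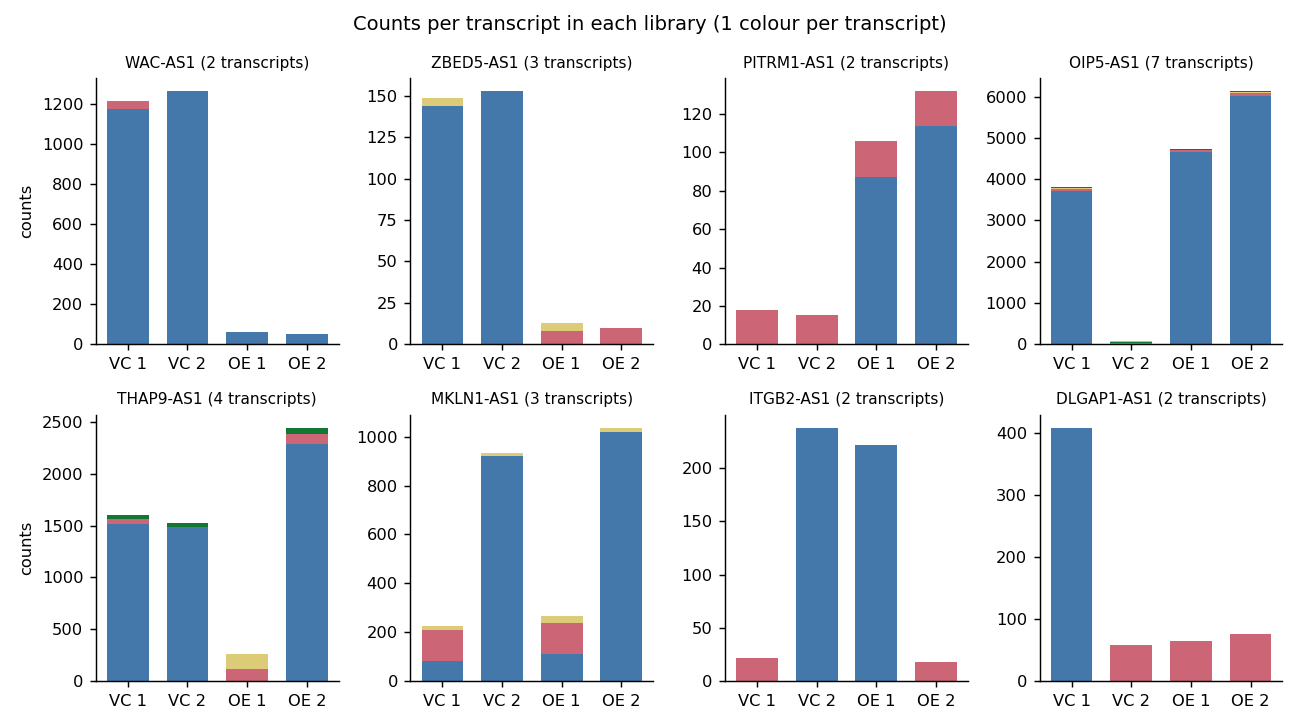
Counts per transcript, stacked, in each library (VC, vector control) for 8 antisense genes, with 1 colour per transcript and transcripts under 10 counts in all left out. In WAC-AS1 the leading transcript is high in both control libraries and low in both OE libraries, while in OIP5-AS1, THAP9-AS1, ITGB2-AS1 and DLGAP1-AS1 the leading transcript changes between libraries of the same condition.

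Because antisense RNAs are turned over in the nucleus, 24 genes of the RNA exosome, its nuclear adaptors and linked factors were examined. The median log2 fold change of these 24 genes was 0.10, and at an unadjusted p under 0.05 in edgeR 1 was higher and 2 were lower in OE, 4.17% and 8.33% of the list against the 10.1% and 10.7% of all tested genes. EXOSC5, a ring subunit of the exosome, had 7.34 and 7.02 CPM in the vector control and 12.2 and 14.0 CPM in OE (log2 fold change 0.86 ± 0.145, adjusted p = 0.101, edgeR). SRRT, the cap-binding adaptor ARS2, had 1164 counts in both control libraries and 895 and 730 in OE (-0.71 ± 0.202, adjusted p = 0.187, edgeR). MPHOSPH6, an exosome cofactor, had 13.4 CPM in both control libraries and 9.76 and 10.8 CPM in OE (-0.38 ± 0.128, adjusted p = 0.226, edgeR). None of the 24 had an adjusted p under 0.05 in edgeR. The widest differences in the list came with wide spread between replicates. NCBP2, the small cap-binding subunit, had 5411 and 5307 counts in the controls and 68 and 1799 in OE (-2.82 ± 1.51, adjusted p = 0.383, edgeR), and EXOSC9, another ring subunit, had 106 and 123 in the controls and 713 and 122 in OE (1.73 ± 0.985, adjusted p = 0.404, edgeR). With DESeq2, 7 of the 24 genes had an unadjusted p under 0.05, against 28.9% of all tested genes.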

How the data were processed

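RNA-seq counts of 4 SK-N-SH libraries were analysed, 2 vector control and 2 RP5-998N21.4 OE, grouped by the treatment and title labels. The authors deposited whole-number read counts per transcript. Their methods name FastQC, Trimmomatic and Bowtie2 with hg19, and the submitters' processing notes list Bowtie2 2.0.4, Picard 2.21.6, StringTie 2.1.6 and DESeq2 without roles. The counting tool, annotation release and use of strand are not given in the sources used here. The kit does not mark strand, so reads in bases shared by opposite genes are uncertain.

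Counts of 196520 transcripts were summed over 57820 genes. Members had a mean of at least 2 CPM of the column total, and printed CPM are TMM-normalized. Genes passing filterByExpr (20528) were tested with edgeR 4.0.16 (R 4.3.3), quasi-likelihood, no block, Benjamini-Hochberg adjustment over all of them. The fit was tried on simulated counts with the same dispersion for every gene. That setting does not copy the wide replicate gaps seen here. DESeq2 1.42.0, limma-voom 3.58.1, RLE normalization, other filters, a replicate block, leaving out each library, the most counted transcript and other member limits were alternatives. Positions came from GENCODE v44 lifted to GRCh37 and promoter windows from RefSeq. Deviations of same-numbered libraries correlated at -0.0264, and no source pairs them. Members and gene lists were chosen with earlier results of these data known. Genes were named by rule, starting with an adjusted p under 0.05. Next came the 8 higher and 8 lower with conditions apart and the smallest p, and the 6 with the highest CPM. Added were pairs with both at p under 0.05, the 3 on each side of the limit and listed transcription factor pairs. Of the 9 with replicates over 4-fold apart, 8 were named. Some results are not reported here.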

Additional observations from a re-analysis of the deposited data

How the results depend on the processing

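Of the 66 named antisense genes and partners, 28 values over all alternatives changed sign and 10 lost an adjusted p under 0.05, all 10 of them for WAC-AS1 and ZBED5-AS1, while 32 came under it, in DESeq2 or limma-voom. The cause was not tested. With 2 libraries per condition, the count of calls depends on the tool: DESeq2 called 26 antisense genes and 19 partners at the thresholds of the study and edgeR 0. The count of antisense genes at an unadjusted p under 0.05 was 46, ranged from 27 to 40 without 1 library and was 25 in pairs without shared exons, where fewer genes are tested. That of the partners was 51, ranged from 34 to 41 without 1 library, and was 74 in DESeq2, with 32 for members at 5 CPM or more and 22 without shared exons. The antisense count was 59 in DESeq2, where 5927 of all 20528 tested genes had an unadjusted p under 0.05, against 4269 in edgeR. Without 1 library fewer of all tested genes reached it too, so the lower counts there are not particular to the antisense genes and partners. The partner counts of 32 and 22 also come from fewer genes. The antisense median log2 fold change ranged from 0.11 to 0.20 without 1 library. The partner median ranged from -0.03 to 0.03 and was -0.02 at 5 CPM or more. Pairs of the same sign numbered 114 of 208 (54.8%), 65 of 129 at 5 CPM or more (50.4%) and 51 of 89 without shared exons (57.3%). The turnover genes at an unadjusted p under 0.05 numbered 7 in DESeq2 and 5 in limma-voom against 3, where 5927 and 4399 of the 20528 tested genes reached it, against 4269.

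With the replicate number as a block, 38 antisense genes (27 higher, 11 lower) and 34 partners had an unadjusted p under 0.05, as had 14.9% of all tested genes, the medians were 0.15 and 0.02, and 113 pairs had the same sign. The numbers are not stated to pair the libraries.

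The log2 fold change of BAIAP2 was 5.59 for its most counted transcript alone. Leaving out 1 library turned the sign of others, with these lowest and highest values. The log2 fold change ranged from -0.85 to 0.03 for TMPO, -1.62 to 1.47 for MBNL1, -0.73 to 0.18 for HNRNPU, -0.52 to 0.05 for OIP5, -0.10 to 0.67 for TP73-AS1, -1.23 to 1.25 for MKLN1-AS1, -2.77 to 0.06 for DLGAP1-AS1, -0.94 to 2.23 for TPT1-AS1, -0.08 to 0.37 for TPT1, -3.14 to 2.31 for ITGB2-AS1, -0.17 to 0.23 for ITGB2, -0.31 to 0.36 for AP4B1, -0.08 to 0.15 for PTPRG, -0.08 to 2.11 for PTPRG-AS1, -0.09 to 0.07 for ZBED5, -0.09 to 0.17 for TAPT1, -2.68 to 0.34 for THAP9-AS1 and -0.02 to 0.06 for FGD5-AS1. In limma-voom MKLN1-AS1 and AP4B1 were at 0.02, as was AP4B1 with the block. The lone library left in a condition is assumed to vary like the others. Few counts limit genes such as PITRM1-AS1, with 18 and 15 in the controls.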
